A study of Mus musculus with 8 samples.

Results

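The comparison described here is between Pggt1b-deficient and wild-type (WT) central regulatory T cells (cTreg cells), 2 ATAC-seq libraries each, which are 4 of the 8 libraries of the series. ATAC-seq uses a transposase that cuts accessible DNA, so that the number of reads over a site measures how open its chromatin is. The libraries were chosen by their labels, Pggt1bKO cTreg against WT cTreg, and all 79758 sites of the deposited table entered the comparison. Cells of both genotypes were regulatory T cells sorted from spleen and lymph nodes of mixed bone marrow chimeras, hosts in which marrow of more than 1 donor develops side by side. The other 4 libraries are effector regulatory T cells (eTreg cells) of the same genotypes and serve here only to read the same sites in other libraries. The labels do not give the Pggt1b allele, a Cre driver, the age or number of the mice, the sort gates, or whether replicates are different hosts, so the p-values rest on the spread of these 4 libraries alone, and that spread may be technical.

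The product of Pggt1b is the catalytic beta subunit of the type I geranylgeranyl transferase. This enzyme attaches a geranylgeranyl lipid to the C terminus of small GTPases, which then sit on membranes and act in adhesion, migration and antigen receptor signalling. Central regulatory T cells are the quiescent, recirculating part of the lineage in lymphoid organs, from which effector cells arise after activation. Sites are named by their mm9 position and none was assigned to a gene, because the gene table at hand belongs to a newer build. The cell type and the loss of the gene were therefore not checked against marker sites.

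The WT cTreg libraries held 12198749 and 12660311 counts and the Pggt1b-deficient cTreg libraries 8854687 and 7153991, so depth went with genotype. For single sites its part was looked at only at named sites, where a refit at equal depth is among the alternatives if counts sufficed. Counts at equal depth are given beside the genome-wide, chromosome and site-number counts. The eTreg libraries held 11194290 and 14974253 counts in WT and 2255214 and 1664702 in Pggt1b-deficient cells. Across tested sites, the correlation of log2 CPM (counts scaled to a common library size) was 0.977 between WT cTreg libraries, 0.962 between the Pggt1b-deficient ones and 0.955 to 0.957 between genotypes. Sites are not independent replicates, and these values are descriptions.

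Loss of Pggt1b went with changes at a small share of sites in cTreg cells, most of them modest in size. Of 69544 sites with enough counts to test, 1517 (2.18%) rose and 1963 (2.82%) fell with loss of Pggt1b in cTreg cells, 5.0% in all (edgeR quasi-likelihood test, Benjamini-Hochberg adjusted p under 0.05, n = 2 and 2). The lower calls had larger folds: their median log2 fold change was -0.90, against 0.55 at the higher calls and 0.00 over all sites tested. The lower calls also had a lower median level, 10.2 CPM against 24.9 CPM, and at low levels mainly larger folds were called. How much of the gap between the medians comes from this was not tested. A change of at least 2-fold was seen at 819 lower sites (1.18% of sites tested) and 304 higher sites (0.437%). At 3470 of the 3480 called sites the 2 WT libraries did not overlap the 2 Pggt1b-deficient libraries in CPM, as was the case at 48.0% of all sites tested.

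The number of sites called depended on the test and on the libraries. DESeq2 called 744 sites, 328 higher and 416 lower, and all 744 were among the edgeR calls. One model over all 8 libraries, which takes up the larger spread of the shallow Pggt1b-deficient eTreg libraries, called 399 higher and 1270 lower sites, 1637 of them shared. With all 4 libraries thinned to the smallest, 837 sites were higher and 1198 lower. Without WT cTreg replicate 1 or 2 the count was 1402 and 1427. Lower sites outnumbered higher ones in each of these fits, but limma-voom called 1846 higher and 1833 lower sites.

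**Figure D1:**
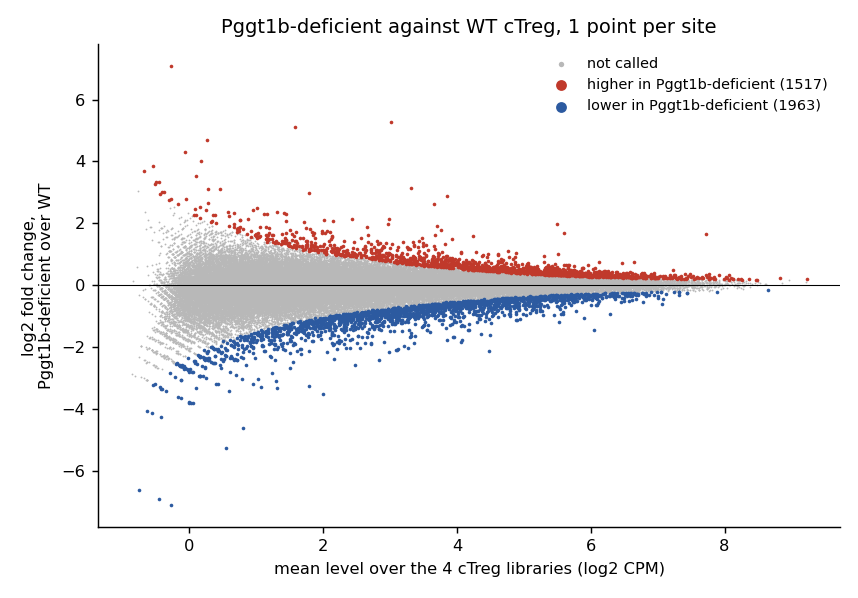
Log2 fold change of each tested site in Pggt1b-deficient over WT cTreg cells (vertical axis) against its mean level in log2 CPM over the 4 cTreg libraries (horizontal axis). Red points are the 1517 sites called higher and blue points the 1963 called lower. Calls of a small fold lie at high levels, and below about 4 on the log2 CPM axis mainly larger folds passed.

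Rises were called more often than falls only in the most open of 5 level classes. In the quintile of sites with the highest level, above 17.6 CPM, 902 sites were higher (6.49%) and 670 lower (4.82%). In the lowest quintile, up to 1.77 CPM, 46 were higher (0.331%) and 153 lower (1.10%), and each of these changed at least 2-fold. The higher calls had a median level of 24.9 CPM and the lower calls one of 10.2 CPM, against 4.63 CPM over all tested sites. High counts allow small folds to be called, so the share called at a level is not a measure of how much that level changed. The median log2 fold change moved from -0.15 in the lowest quintile to 0.04 in the highest.

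Width divided the calls less clearly. Of sites of 401 to 800 bp, 5.40% were higher and 7.01% lower, and of sites over 800 bp, 6.05% and 5.74%. Wide sites changed by little: over 800 bp, no site rose and 6 fell by 2-fold or more. Among sites of up to 50 bp, where 0.768% were higher and 0.461% lower, 66 rose and 41 fell at least 2-fold. Higher and lower calls had nearly the same median width, 276 and 273 bp, against 123 bp over tested sites.

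The direction of change differed between chromosomes. On chromosome 11, 155 of 3774 sites were higher (4.11%) and 26 lower (0.689%), and on chromosome 19, 80 of 1647 were higher (4.86%) and 20 lower (1.21%). Together these 2 chromosomes held 235 higher and 46 lower calls, so that 83.6% of their calls were higher, against 43.6% over the genome. Chromosomes 15 and 17 leaned the same way, with 96 higher and 41 lower and with 102 higher and 69 lower sites. Chromosome 16 leaned the other way most, with 32 higher (1.10%) and 131 lower (4.52%) of 2896 sites.

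On chromosomes 11 and 19 the median site moved by a small amount, in both Pggt1b-deficient cTreg libraries. Each library was set against the mean of the 2 WT libraries of its subset, at sites of at least 5 CPM, so that the WT values are mirror images of each other. On chromosome 11 the median log2 ratio was 0.211 and 0.180 in the Pggt1b-deficient cTreg libraries, against 0.009 and -0.009 in the WT libraries. On chromosome 19 it was 0.193 and 0.173, against -0.008 and 0.008. On chromosome 16 it was -0.025 and -0.061, against -0.021 and 0.021, so there the lower WT library came close to the higher Pggt1b-deficient one. The eTreg libraries, which share no library with this comparison, showed part of the pattern. Chromosome 11 stood at 0.098 and 0.057 in the Pggt1b-deficient libraries, but chromosome 19 was split, at 0.109 and -0.007. Chromosome 16 stood at -0.127 and -0.090, but it was not set apart there. Most chromosomes were below 0 in these libraries, and chromosome 18 was at -0.114 and -0.142.

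**Figure D2:**
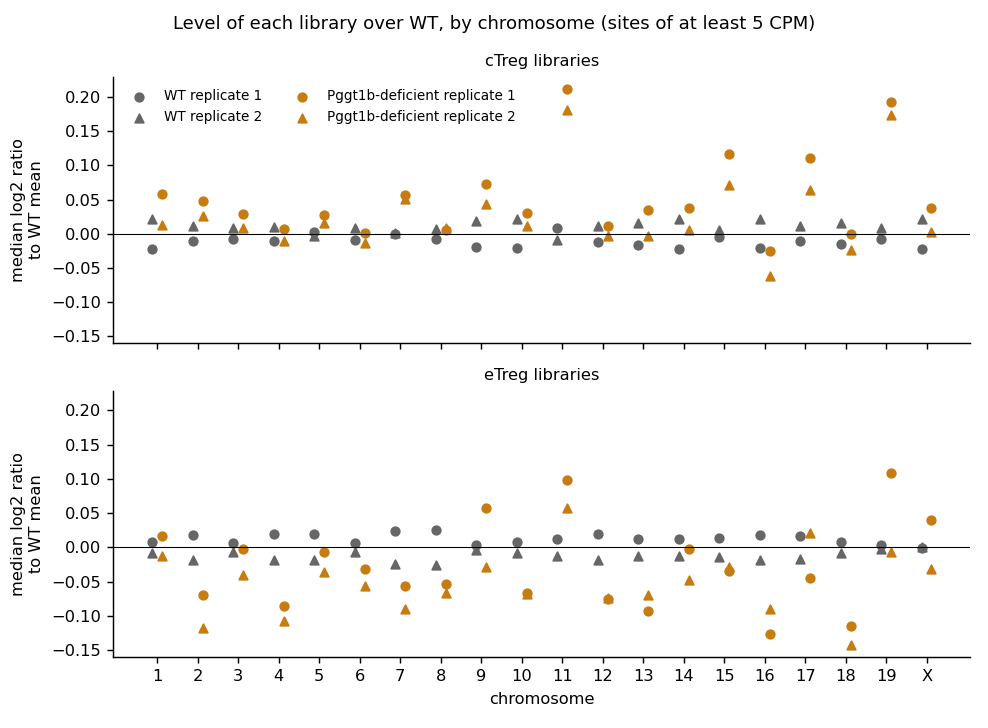
Median log2 ratio of each library to the mean of the 2 WT libraries of its subset, by chromosome, for sites of at least 5 CPM (top: cTreg, bottom: eTreg). Orange marks are Pggt1b-deficient and grey marks WT libraries, circles replicate 1 and triangles replicate 2. Chromosomes 11 and 19 stand highest in both Pggt1b-deficient cTreg libraries, at 0.173 to 0.211, and the WT marks lie within 0.025 of 0.

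How many calls chromosomes 11 and 19 held moved with the libraries and the depth. With all 8 libraries in the model they held 53 higher and 30 lower calls, and with libraries thinned to equal depth 131 and 25. Without WT cTreg replicate 1 or 2 they held 86 and 18 or 76 and 20. Under RLE factors, library totals, loess offsets by level and loess offsets by local site number they held 182 to 239 higher and 44 to 49 lower calls. Scaling within each chromosome, a choice made after the shift was seen, sets the median of a chromosome to about 0 by construction, and 33 higher and 94 lower calls were then left on the 2 chromosomes. Genome-wide the within-chromosome scaling called 1397 higher and 1781 lower sites. Of calls on the 2 chromosomes that changed at least 2-fold, 30 were higher and 23 lower. That is 56.6% higher, against 27.1% of such calls over the genome (304 higher and 819 lower). Most higher calls on the 2 chromosomes thus had smaller folds, but their lean relative to the genome was also seen at 2-fold or more.

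A related pattern followed how closely sites lie along the genome. Sites were sorted by the number of other sites within 500 kb on either side. In the quintile with the fewest neighbours, up to 39, 248 sites were higher (1.70%) and 706 lower (4.84%), with a median log2 fold change of -0.09. In the quintile with the most, over 87 neighbours, 352 were higher (2.54%) and 283 lower (2.04%), with a median of 0.05. The same order was seen at sites of at least 5 CPM. There the Pggt1b-deficient cTreg libraries stood at -0.019 and -0.030 over the WT mean in the sparse quintile and at 0.096 and 0.061 in the dense one, while the WT libraries stayed within 0.017 of 0 in both. Without chromosomes 11 and 19 the sparse quintile had 1.53% higher and 5.07% lower and the dense one 2.53% and 2.11%. At equal depth the sparse quintile held 146 higher and 425 lower calls, and with all 8 libraries in the model 80 and 470. Without WT cTreg replicate 1 or 2 it held 113 and 309 or 125 and 306. Loess offsets by local site number, added after the relation was seen, reduce it by construction, and 375 higher and 511 lower calls were left in the sparse quintile.

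**Figure D3:**
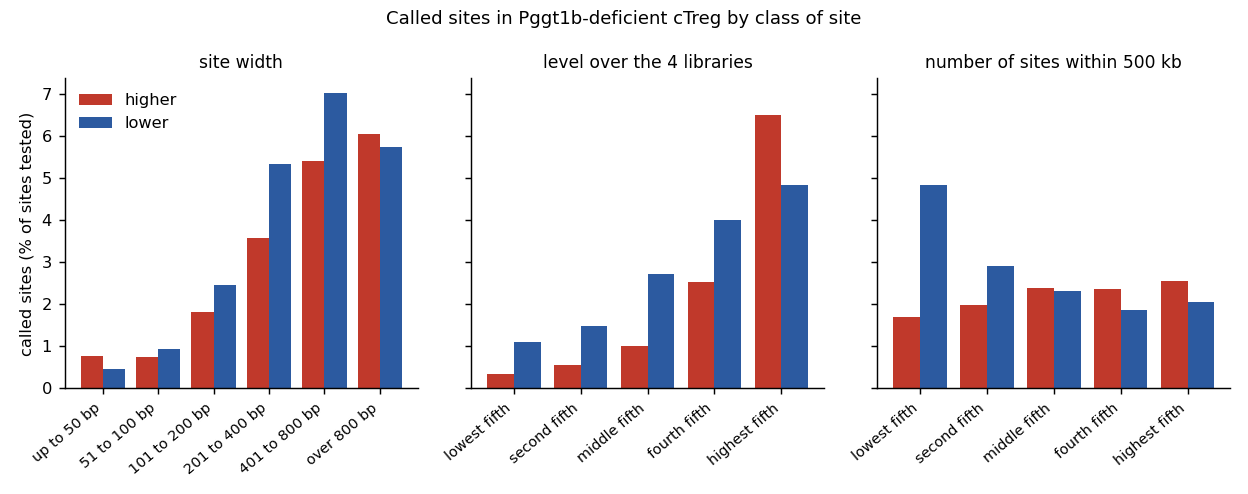
Share of tested sites called higher (red) and lower (blue) in Pggt1b-deficient cTreg cells, in percent, by site width, by mean level and by the number of other sites within 500 kb. The lower share falls from 4.84% to 2.04% from the sparsest to the densest quintile, and the higher share rises from 1.70% to 2.54%.

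Stretches of 10 Mb showed where along the genome sites moved together. Of stretches with at least 40 tested sites, the 4 with the lowest and the 4 with the highest median log2 fold change are given, a choice made after values were seen. On chromosome 6, the stretch from 10 to 20 Mb had 22 lower sites and 1 higher among 160, and a median of -0.42. Chromosome 14 had 3 lower and 0 higher among 53 from 80 to 90 Mb (median -0.37), chromosome 12 had 17 and 0 among 107 from 40 to 50 Mb (-0.36), and chromosome 2 had 18 and 0 among 124 from 80 to 90 Mb (-0.32). The eTreg medians of these 4 were -0.11, 0.29, -0.34 and -0.34 in the same order, so the stretch of chromosome 14 went the other way there. At the other end, the first 10 Mb of chromosome 19 had 24 higher and 0 lower sites among 304 (median 0.29), and chromosome 11 had 8 and 0 among 89 from 120 to 130 Mb (0.29). Chromosome 17 had 27 higher and 2 lower among 427 from 30 to 40 Mb (0.27), and chromosome 11 had 19 and 0 among 366 from 70 to 80 Mb (0.27). The eTreg medians of these were 0.09, 0.19, 0.04 and 0.18, all above 0. Counts by stretch were made from the edgeR calls only.

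Called sites close to each other mostly changed in the same direction. Of 424 pairs of neighbouring called sites within 10 kb of each other, 394 (92.9%) changed in the same direction. Over 45553 such pairs of tested sites, called or not, the fold changes had the same sign in 59.0%. When sites less than 500 bp apart were merged, 1648 merged regions were higher and 2081 lower among 50592 tested, against 1517 and 1963 single sites.

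Fixed tiles of 200 kb were used to find the loci with most called sites. Of 3449 tiles with at least 8 tested sites, 890 held a lower and 864 a higher call, and 134 held both. Of all of these, 18 tiles had 5 or more lower calls and 15 had 5 or more higher calls. The 6 leading tiles of each direction are described next. The tile borders matter: 6 of these 12 overlapped a leading tile of the same direction with 100 kb tiles, and 7 with 500 kb tiles.

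The tile with most lower calls covered 76.2 to 76.4 Mb of chromosome 16, and 10 of its 73 sites fell and none rose (median log2 fold change -0.22 over all 73, edgeR). The called sites spanned 69.9 kb, from 76299887 to 76369803. The strongest of them, chr16:76337185-76337576, had 57.7 and 70.4 CPM in the WT cTreg and 27.9 and 28.1 CPM in the Pggt1b-deficient cTreg libraries, a log2 fold change of -1.20 ± 0.11 (SE). The adjoining chr16:76337718-76338034 had 13.1 and 15 CPM against 3.41 and 3.34 CPM, a change of -2.06 ± 0.24. Both genotypes were separate at each of these sites. In eTreg cells chr16:76337185-76337576 had 55.4 and 73.0 CPM in WT and 57.9 and 45.8 CPM in Pggt1b-deficient libraries, which overlap. Over the tile as a whole, 8 of 53 tested sites rose and 2 fell with loss of Pggt1b in eTreg cells, but none of the 8 was a site called in cTreg cells, and both falls were. These were chr16:76337718-76338034, with 9.18 and 15.9 CPM in WT and 0.891 and 5.88 CPM in Pggt1b-deficient eTreg libraries (log2 fold change -1.98, edgeR adjusted p = 0.0333), and chr16:76369594-76369803, with 5.01 and 7.97 against 0 and 1.18 CPM (-3.58, 0.0156). Its largest fold, at chr16:76301564-76301618, rested on 32 counts in WT and 2 in Pggt1b-deficient cTreg libraries, a 10.1-fold fall (95% Clopper-Pearson interval 2.58 to 86.9, counting error only). The edgeR adjusted p there was 0.0433, with a range of 0.0249 to 0.464 over the alternatives, 9 of which lost the call.

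The second tile, at 63.6 to 63.8 Mb of chromosome 8, had 9 of 26 sites lower within 44.7 kb and none higher (median -0.46, edgeR). In eTreg cells 5 of 19 sites there were lower and none higher, with a median of -0.67. Its largest change, at chr8:63752085-63752176, was -2.37 ± 0.73, with 2.79 and 1.25 CPM in WT and 0 and 0.835 CPM in Pggt1b-deficient cTreg libraries. This low site was called at an edgeR adjusted p of 0.0452, but 7 alternatives lost it (range 0.000583 to 0.658). Summed over the tile, WT cTreg libraries had 362 and 368 CPM and Pggt1b-deficient ones 319 and 339 CPM, a small but non-overlapping difference.

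The tile at 41.6 to 41.8 Mb of chromosome 8 had the largest share of lower sites, 8 of 9, with a median of -1.67, and all 9 fold changes were below 0. Its WT libraries disagreed, however. The summed level was 195 CPM in WT cTreg replicate 1 and 69.0 CPM in replicate 2, against 39.5 and 43.1 CPM in the Pggt1b-deficient cTreg libraries. In eTreg cells it was 342 and 160 CPM in WT and 112 and 93.4 CPM in Pggt1b-deficient libraries, again with replicate 1 of the WT highest. All 4 WT libraries thus lay above the Pggt1b-deficient libraries of their subset, while WT replicates differed from each other by more than the Pggt1b-deficient ones. At chr8:41680187-41681044, the strongest site, the values were 52.6 and 19.4 CPM in WT and 6.02 and 10.9 CPM in Pggt1b-deficient cTreg libraries, or -2.13 ± 0.25 on the log2 scale (edgeR adjusted p = 1.56e-07). DESeq2 did not call it, with an adjusted p of 0.154 (range over all alternatives 1.43e-42 to 0.154). At chr8:41695488-41695524, with 12.1 and 2.97 CPM against 1.48 and 1.39 CPM, the change of -2.39 ± 0.43 became -1.05 without WT cTreg replicate 1, where the edgeR adjusted p was 0.456 (main value 0.00032, range 1.6e-12 to 0.456).

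The next lower tiles were steadier between WT libraries. On chromosome 14, the tile at 101.8 to 102.0 Mb had 8 of 30 sites lower and none higher (median -0.55, edgeR), and the summed level fell from 320 and 341 CPM to 235 and 216 CPM. The same tile fell in eTreg cells, from 346 and 370 CPM to 226 and 242 CPM, with 5 of 26 sites lower. Its site chr14:101879804-101880114 had 33.4 and 32.3 CPM in WT and 14.9 and 17.4 CPM in Pggt1b-deficient cTreg cells (log2 fold change -1.04 ± 0.14), and 52.3 and 62.1 against 20.5 and 20.6 CPM in eTreg cells. This site was chosen after its values were seen. A second tile of chromosome 16, at 89.8 to 90.0 Mb, had 8 of 34 sites lower, and the summed level was 568 and 575 CPM in WT and 460 and 446 CPM in Pggt1b-deficient cTreg libraries. The tile at 15.6 to 15.8 Mb of chromosome 6 had 7 of 46 lower, with 44 of 46 fold changes below 0 and levels of 657 and 668 against 510 and 508 CPM.

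Among higher tiles, the one at 111.4 to 111.6 Mb of chromosome 7 led, with 7 of 21 sites higher and 2 lower. The rise was local: 6 of the 7 lay between 36 and 64 kb before the centre of the tile. At chr7:111439326-111439455 the levels were 4.46 and 2.34 CPM in WT and 23.2 and 27.6 CPM in Pggt1b-deficient cTreg libraries, or 2.88 ± 0.22 on the log2 scale (edgeR adjusted p = 5.12e-13). About 1 kb further on, chr7:111440313-111440407 had 4.78 and 2.26 CPM against 21.0 and 22.5 CPM (2.62 ± 0.23), and chr7:111440795-111440870 had 3.42 and 2.34 against 10.8 and 15.2 CPM (2.15 ± 0.26). A 4th site, chr7:111463358-111463504, had 4.30 and 2.03 against 12.4 and 12.5 CPM (1.96 ± 0.27). WT replicate 1 was above replicate 2 at all 4. The same order held in the WT eTreg libraries, with 5.38 and 2.18 CPM at the first of them. Pggt1b-deficient eTreg libraries had 26.7 and 18.8 CPM there, so this first site was higher in all 4 Pggt1b-deficient libraries. At the 4th, Pggt1b-deficient eTreg libraries had 8.46 and 16.5 CPM, against 8.25 CPM in WT eTreg replicate 1. The 4th site was not called in eTreg cells (edgeR adjusted p = 0.148). A low site just before the 4th, chr7:111462783-111462827, had no count in WT and 26 counts in Pggt1b-deficient cTreg libraries, at least 13.7-fold higher against a floor of 3 counts over the WT group. Its edgeR adjusted p of 0.000849 became 0.0574 and 0.0525 without WT cTreg replicate 1 or 2 (range 5.1e-05 to 0.0574).

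Next came 87.4 to 87.6 Mb of chromosome 11, with 7 of 29 sites higher, none lower and 26 fold changes above 0 (median 0.42, edgeR). Its summed level was 364 and 352 CPM in WT and 467 and 454 CPM in Pggt1b-deficient cTreg libraries. In eTreg libraries it was 369 and 349 against 465 and 429 CPM, so the summed level rose in both subsets. Of 23 sites tested in eTreg cells, 2 were called higher and 0 lower. Its most changed site, chr11:87574396-87574455, rose by only 1.27 ± 0.34 from 2.15 and 2.11 to 4.32 and 6.12 CPM, and 6 alternatives lost the call (main edgeR adjusted p 0.0193, range 0.00893 to 0.138). This site did not rise in eTreg cells, with 3.89 and 3.95 CPM in WT and 3.56 and 1.76 CPM in Pggt1b-deficient libraries. On chromosome 7, the tile at 132.6 to 132.8 Mb had 7 of 54 sites higher and 48 fold changes above 0, and the level rose from 449 and 453 to 595 and 589 CPM.

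The tile at 42.0 to 42.2 Mb of chromosome 18, the chromosome that carries Pggt1b in the RefSeq gene table of build GRCm38.p6, had 6 of 11 sites higher and all 11 fold changes above 0 (median 1.20). Its summed level rose from 124 and 127 CPM in WT to 260 and 269 CPM in Pggt1b-deficient cTreg libraries. The eTreg values were 201 and 223 CPM in WT and 371 and 250 CPM in Pggt1b-deficient libraries. Further higher tiles on chromosome 7, at 83.2 to 83.4 Mb and 87.8 to 88.0 Mb, each had 6 higher sites, of 13 and 17 tested. In eTreg libraries the summed level of the first rose, from 88.4 and 84.9 CPM in WT to 113 and 120 CPM in Pggt1b-deficient libraries. That of the second fell there, from 289 and 277 to 245 and 248 CPM. Where Pggt1b lies relative to the chromosome 18 tile on mm9 was not analysed here.

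**Figure D4:**
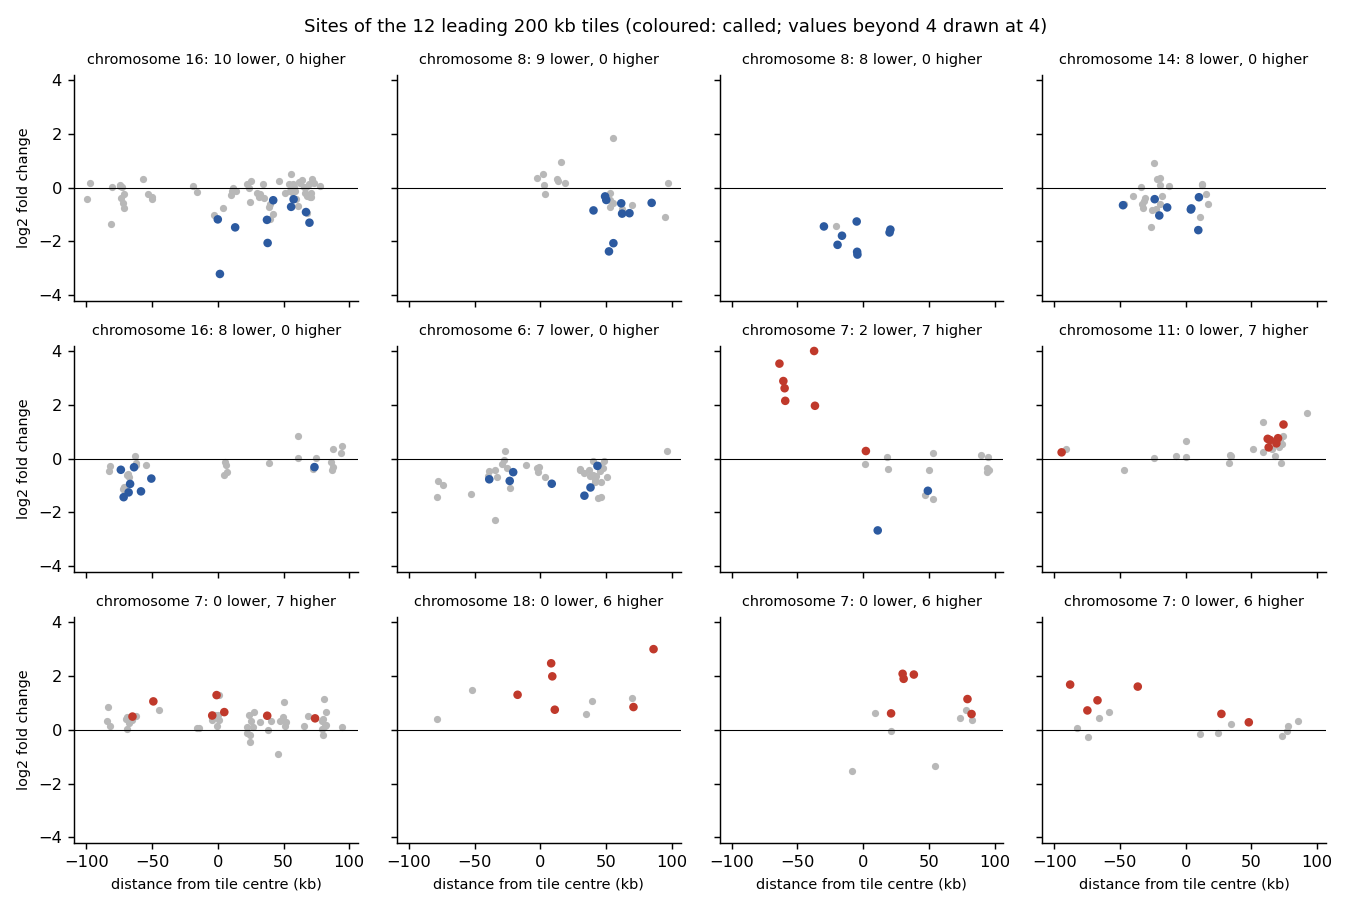
Log2 fold change of every tested site (vertical axis) in the 12 leading tiles of 200 kb, against distance from the tile's centre in kb (horizontal axis). The first 6 panels lead in lower and the last 6 in higher calls. Red and blue points are called higher and lower, grey points are not called, and values beyond 4 are drawn at 4. The tile of chromosome 8 with 8 lower calls has all 9 sites below 0, and the tile of chromosome 18 has all 11 above 0.

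Single sites were named by size: the 8 largest changes in each direction among called sites with a mean of at least 50 counts and no overlap between genotypes, and the 5 largest in each direction among those of at least 20 CPM. These rules name 12 higher and 12 lower sites. Such sites were picked for their change in these libraries, so their values in cTreg cells are descriptions.

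The largest rise named by size was on chromosome 18, at chr18:46407338-46407406. This 68 bp site had 0.398 and 0.390 CPM in the WT cTreg libraries, 10 counts in all, and 18.1 and 13.5 CPM in the Pggt1b-deficient ones, 256 counts in all (log2 fold change 5.28 ± 0.35). The eTreg libraries gave 0.371 and 0.749 CPM in WT and 18.3 and 13.5 CPM in Pggt1b-deficient cells. The level thus followed genotype in both subsets. Chromosome 18 carries Pggt1b, and where the gene lies relative to this site on mm9 was not analysed. Whether the altered Pggt1b allele itself gave reads at this site was not tested. At chr5:108356026-108356170 the cTreg levels were 2.55 and 1.48 CPM in WT and 18.6 and 17 CPM in Pggt1b-deficient libraries (3.13 ± 0.25), and the eTreg levels 1.67 and 0.681 against 8.46 and 9.99 CPM. A site on an unplaced contig, NT_165754:272495-272764, rose from 7.33 and 3.44 to 8.97 and 32.3 CPM (1.90 ± 0.30, edgeR adjusted p = 4.54e-05), but this rested on Pggt1b-deficient cTreg replicate 2: without it the change was 0.73 with an adjusted p of 0.118, and DESeq2 gave 0.371, the top of the range over alternatives, which began at 2.31e-30.

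Strong sites that rose included chr18:42108860-42109176, inside the chromosome 18 tile described above. It had 18.2 and 18 CPM in WT and 72.8 and 71.0 CPM in Pggt1b-deficient cTreg libraries, or 1.98 ± 0.10 on the log2 scale with almost no spread within groups (edgeR adjusted p = 1.94e-18). Adjoining sites on chromosome X, chrX:103382111-103382353 and chrX:103382465-103382529, rose by 1.66 ± 0.12 and 1.70 ± 0.19. The first had 104 and 97.4 CPM in WT and 225 and 418 CPM in Pggt1b-deficient libraries, and the second 20 and 25 against 40.9 and 108 CPM. Pggt1b-deficient replicate 2 was thus well above replicate 1 at both, and without it the log2 fold changes were 1.15 at chrX:103382111-103382353 and 0.86 at chrX:103382465-103382529. DESeq2 gave the second an adjusted p of 0.19, against 2.98e-08 by edgeR (range 9.39e-83 to 0.19). At chr12:36752238-36752598 the levels were 16.5 and 18 against 37.1 and 37.3 CPM (1.10 ± 0.13), and at chr3:100870028-100870429 they were 18.5 and 20 against 40.4 and 39.1 CPM (1.04 ± 0.12).

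Of the falls, the largest named was at chr16:76562208-76562430, from 8.44 and 10.8 CPM in WT to 2.27 and 0.835 CPM in Pggt1b-deficient cTreg libraries (log2 fold change -2.58 ± 0.33, edgeR adjusted p = 7.16e-07). It lies on the same chromosome as the leading lower tile, in the tile just after it. At chr6:91209651-91209892 the levels were 14.2 and 10.0 against 2.50 and 1.95 CPM (-2.43 ± 0.28), and at chr11:45478910-45479065, on a chromosome where few sites fell, 12.5 and 13.6 against 4.09 and 1.53 CPM (-2.17 ± 0.27). The remaining falls of this group, at chr6:134849404-134849578, chr16:78547712-78548066 and chr12:111613474-111613720, ranged from -2.07 to -2.11. Each had WT levels of 6.09 CPM or more and Pggt1b-deficient levels of 3.86 CPM or less.

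Strong sites fell by smaller factors. The site chr7:96456746-96457165 went from 93.4 and 100 CPM to 33.6 and 37.6 CPM, or -1.46 ± 0.09 on the log2 scale (edgeR adjusted p = 6.1e-16). Others were chr2:109757535-109758503, a 968 bp site with only 7 other sites within 500 kb, from 33.9 and 33.7 to 8.40 and 14.2 CPM (-1.61 ± 0.16), chr6:100757205-100757803, from 31.8 and 29.6 to 10.7 and 10.0 CPM (-1.57 ± 0.15), and chr9:83457862-83458176, from 28.7 and 34.6 to 12.9 and 14.6 CPM (-1.22 ± 0.15). All 4 also fell in eTreg cells, by 0.73 to 1.38 on the log2 scale, with edgeR adjusted p of 0.000104 to 0.00348.

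**Figure D5:**
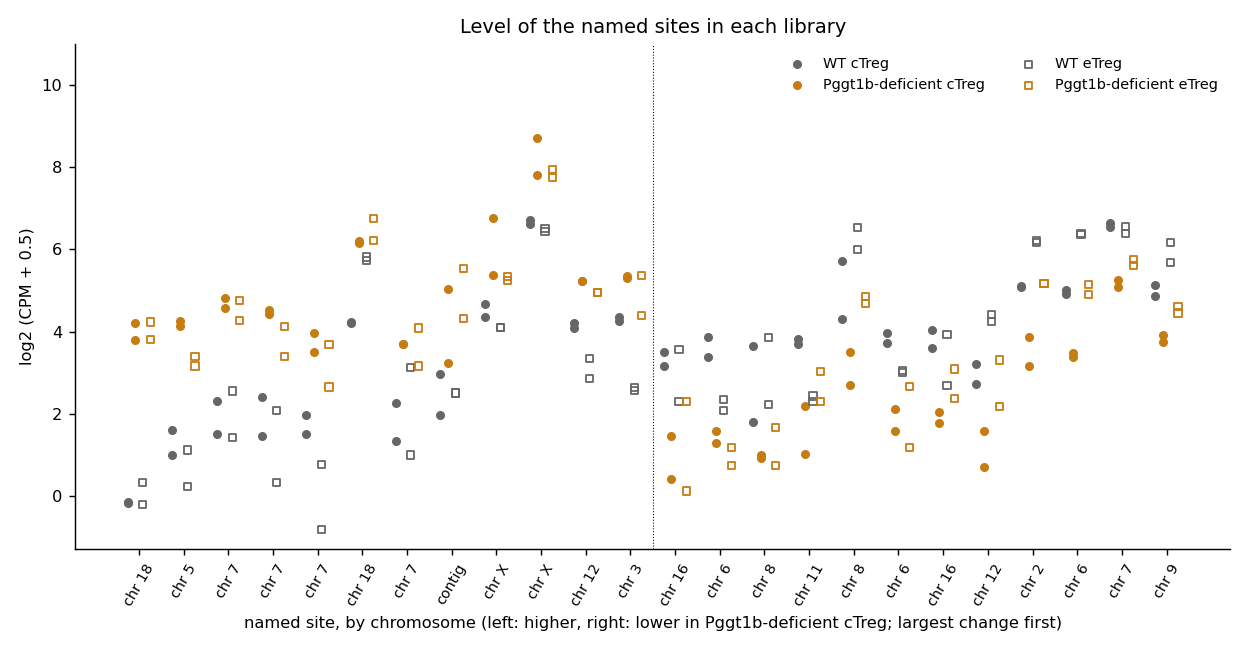
Level of the 24 sites named by size in each library, as log2 of CPM plus 0.5, ordered by size of change in cTreg cells, with higher sites left and lower sites right of the dotted line. Filled circles are cTreg and open squares eTreg libraries, grey WT and orange Pggt1b-deficient. The site at the far left has 0.398 and 0.390 CPM in WT and 18.1 and 13.5 CPM in Pggt1b-deficient cTreg libraries. In its eTreg libraries the gap is as wide.

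The eTreg libraries allowed the cTreg calls to be read in libraries that did not choose them. Of the 1517 higher sites, 1421 had enough counts in the eTreg libraries, and 397 of these (27.9%) also rose with loss of Pggt1b in eTreg cells, where 3.87% of all sites were (edgeR, 4 eTreg libraries). None was called lower by edgeR, where 17 had an unadjusted p under 0.05 in that direction, or by DESeq2 or limma-voom. The model over all 8 libraries called 9 lower, and edgeR without Pggt1b-deficient eTreg replicate 1 or 2 called 11 and 16. The median log2 fold change of the 1421 in eTreg cells was 0.39, against -0.01 over all sites tested in both subsets and 0.51 for the same sites in cTreg cells. Of the 1963 lower sites, 1915 were tested, 698 (36.4%) were also lower, against 4.86% of all sites, and 16 (0.836%) were higher. Their median was -0.66 in eTreg and -0.88 in cTreg cells. The cTreg medians are raised in size by the selection of the sites there. The shares over all sites are not like for like. In cTreg libraries the higher and lower calls had median levels of 24.9 and 10.2 CPM, against 4.63 CPM over tested sites. The share called rose with level there, and shares at matched levels were not computed.

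These eTreg calls needed both WT eTreg libraries. Without WT eTreg replicate 1 or 2, edgeR called 0 sites in eTreg cells as a whole, with 4325 and 3950 at an unadjusted p under 0.05. The medians moved little: without either library in turn the higher sites stood at 0.40 and 0.36 and the lower sites at -0.71 and -0.64. No other tool was run on those 3 libraries. The comparisons in the 2 subsets share no library, but the labels do not say whether cTreg and eTreg cells of one replicate number came from the same mice. Some differences between WT replicates had the same direction in both subsets. They were sought among 36959 sites with a minimum of 100 counts in WT cTreg and 50 in WT eTreg libraries. Of 31 sites at least 2-fold higher in WT cTreg replicate 1 than in replicate 2, 15 were also higher in WT eTreg replicate 1 by at least 0.5 on the log2 scale and 2 lower, and of 39 sites higher in replicate 2, 21 were higher and 0 lower. Of the 31, 6 were called between genotypes in cTreg cells, and of the 39, 1. Over all 69544 sites tested, which include weaker ones, 5.0% were called, so that share is not like for like. The shares of all 36959 sites that were called or differed likewise in WT eTreg libraries are not given here. The tile at 41.6 to 41.8 Mb of chromosome 8 held 6 of the 31, which thus lie at 1 locus.

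At most named sites no difference between subsets in the response to Pggt1b loss was called, which does not show that the response was alike. Of the 28 sites named by size or as the most changed of a leading tile, 25 were tested in eTreg cells, 23 had the same sign there, 17 were called in the same direction and 0 in the other. Over all cTreg calls tested in eTreg cells, 27.9% of higher and 36.4% of lower sites were called in the same direction. Of all sites tested in eTreg cells, 3.87% were higher and 4.86% lower. The named sites were picked for large changes, and some are neighbours at the same locus. An interaction term over all 8 libraries, called at 1.51% of sites, was called at 4 of the 28, a larger share. The shallow Pggt1b-deficient eTreg libraries limit this test. For example, chr16:78547712-78548066 was not called at an eTreg minus cTreg difference of 1.44 ± 0.56. The rise at chr18:42108860-42109176 was smaller in eTreg cells, from 52.6 and 55.9 CPM in WT to 108 and 74.0 CPM, and the eTreg minus cTreg difference was -1.18 ± 0.18 on the log2 scale (edgeR adjusted p = 9.49e-05). The rise at chr3:100870028-100870429 was larger there, from 5.75 and 5.45 to 41.0 and 20.6 CPM. The sites at chr11:45478910-45479065 and chr7:96456746-96457165 fell less or not at all, with 4.45 and 4.90 against 4.45 and 7.64 CPM and with 83.0 and 93.9 against 53.4 and 48.2 CPM. The interaction uses the cTreg libraries that chose these sites, which favours a smaller change in eTreg cells.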

How the data were processed

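The authors deposited 1 table of raw whole-number counts per site for 8 libraries. The submitters' processing notes name MACS2 2.1.1, bedtools, SAMtools, Trimmomatic 0.36 and Picard 2.9.4, and mouse build mm9. Not given in the sources used here are the aligner, any shift of read ends, the peak threshold and the counted unit (read or fragment). Groups and replicate numbers come from the sample titles. Positions are printed as deposited, and whether starts count from 0 or 1 is not stated. In each library 66.1% to 77.4% of counts from 1 to 10 were even, so counts tend to come in pairs and intervals from counts are too narrow.

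The 4 cTreg libraries were fitted in R 4.3.3 with edgeR 4.0.16 (filterByExpr, TMM scaling, quasi-likelihood F test, two-sided, Benjamini-Hochberg adjustment over all 69544 sites tested), the 4 eTreg libraries likewise, and the interaction over all 8. Standard errors were computed as the absolute log2 fold change divided by the root of F. CPM values are TMM-scaled over all 8 libraries. With 2 libraries a group, exact permutation cannot reach p = 0.05, so single values have no such test. The procedure was also run on simulated counts, but the outcome is not given here and no result rests on it. DESeq2 1.42.0 and limma 3.58.1 were alternatives, as were other scalings, filters, thinning, merging and leaving out libraries. The sites, lists, tests and the choice of the 4-library model were made with earlier results of these data known, including its larger number of calls. Sites are named by the rules stated above: adjusted p under 0.05, a mean of at least 50 counts, no overlap of CPM, the 8 largest folds and the 5 largest above 20 CPM in each direction, and the most changed site of the 2 leading tiles of each direction. Gene and cell marker lists were not used, for want of an mm9 annotation, and base composition was not analysed.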

Additional observations from a re-analysis of the deposited data

Results flagged for a closer look

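At 4 named sites the effect of Pggt1b loss differed between eTreg and cTreg cells in the interaction test (edgeR, all 8 libraries, adjusted p under 0.05). The eTreg minus cTreg difference in log2 fold change was -1.18 ± 0.18 at chr18:42108860-42109176 (adjusted p = 9.49e-05), 1.5 ± 0.28 at chr3:100870028-100870429 (0.00229), 2.53 ± 0.56 at chr11:45478910-45479065 (0.00991) and 0.70 ± 0.17 at chr7:96456746-96457165 (0.0208). The sites were chosen for their change in the cTreg libraries, which also enter the interaction.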

How the results depend on the processing

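The 3480 calls in cTreg cells moved by over 1.5 times under 6 settings: 1669 with all 8 libraries in the model, 744 with DESeq2, 2035 with counts thinned to the smallest compared library, 1123 with a fold of at least 2, and 1402 to 3533 over the fits without 1 of the 4 libraries, where the WT libraries lowered it. The share of calls that were higher, 43.6%, was 23.9% with all 8 libraries and 27.1% with a fold of at least 2, and 37.0% to 50.2% with the other scalings, filters and tests, where the count stayed between 3138 and 3961. The 5340 eTreg calls became 8354 with all 8 libraries, 2857 with the replicate block and 0 to 10129 without 1 library. With limma-voom 66.9% of them were higher, against 44.3%. The 1139 interaction calls became 734 with DESeq2 and 382 to 2035 without 1 library. Of calls on chromosomes 11 and 19, 83.6% were higher, and 56.6% of those with a fold of at least 2, against 43.6% and 27.1% over the genome. Only 6 and 7 of the 12 leading tiles were met again with 100 kb and 500 kb tiles. Of 486 refits of the 28 named sites, 457 kept the call, 29 lost it and none changed sign.

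Replicate numbers are shared between groups, but same-numbered cTreg libraries did not deviate together: the replicate 1 minus replicate 2 differences of WT and Pggt1b-deficient libraries correlated at r = -0.0201 over 69544 sites, so the number is not taken as a pairing. With the replicate block edgeR called 3961 sites in cTreg cells, 1758 higher and 2203 lower. Depth limits weak sites: among tested sites up to 3.32 CPM, every edgeR call changed at least 2-fold, so smaller changes were not detectable there.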
